A study of Rattus norvegicus with 18 samples.

Results

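Megalin, cubilin, amnionless and Dab2 form the apparatus with which the kidney takes protein back out of the filtrate, and the 4 genes that encode them (Lrp2, Cubn, Amn and Dab2) were followed here across 18 kidney libraries. They were taken by their identifiers from the 55335 rows of the deposited count table, ENSMUSG00000027070 for Lrp2, ENSMUSG00000026726 for Cubn, ENSMUSG00000021278 for Amn and ENSMUSG00000022150 for Dab2, and all 4 were among the 19233 genes kept for testing. The labels describe the animals as Rattus norvegicus, while the identifiers are mouse identifiers and the submitters' processing notes name the mouse builds GRCm38 and mm10. Each group held 6 libraries of polyadenylated kidney RNA. Control animals (Ctrl) ate ordinary feed and received the solvent by gavage. The DN group, a model of diabetic nephropathy, received a high-fat diet and an injection of STZ. The Treat group was the same model with oral TSK, 500 mg/kg per day for 4 weeks, and the labels do not spell out what TSK stands for. The sources used here give no strain, sex, age or STZ dose, and do not say whether the untreated model animals received the solvent.

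Megalin is a very large receptor of the low-density lipoprotein receptor family on the apical membrane of proximal tubule cells. Cubilin is a large peripheral protein without a membrane-spanning segment of its own, and amnionless, a small transmembrane protein, carries it to the surface and holds it there. Dab2 is a clathrin adaptor that binds the cytoplasmic tail of megalin and links the receptor to the coated pit. Through these proteins the proximal tubule recovers albumin, vitamin D-binding protein, retinol-binding protein and other filtered proteins, and in the intestine cubilin with amnionless takes up vitamin B12 bound to intrinsic factor.

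The start-site regions of the genes are shown first, as a description of sequence. Their relation to the changes in level given below was not tested. All 4 symbols were found in the RefSeq promoter table of the rat build GRCr8, which gives 250 bases before to 50 bases after a start. The window of Lrp2 is chr3:74754486-74754785 (minus strand), that of Cubn chr17:81501645-81501944 (minus strand) and that of Amn chr6:136132317-136132616 (plus strand). The start site listed for Dab2 lies 30353 bases inside the annotated gene, and its window is not printed. Each sequence reads 5′ to 3′ on the strand of its gene, and capitals mark matches to the motifs named after the sequences.
Lrp2: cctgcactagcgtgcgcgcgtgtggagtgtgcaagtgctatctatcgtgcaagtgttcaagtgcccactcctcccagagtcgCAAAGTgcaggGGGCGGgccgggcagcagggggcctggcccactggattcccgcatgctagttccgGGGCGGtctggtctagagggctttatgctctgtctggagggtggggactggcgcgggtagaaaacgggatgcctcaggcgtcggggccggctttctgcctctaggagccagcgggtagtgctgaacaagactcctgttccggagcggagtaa
Cubn: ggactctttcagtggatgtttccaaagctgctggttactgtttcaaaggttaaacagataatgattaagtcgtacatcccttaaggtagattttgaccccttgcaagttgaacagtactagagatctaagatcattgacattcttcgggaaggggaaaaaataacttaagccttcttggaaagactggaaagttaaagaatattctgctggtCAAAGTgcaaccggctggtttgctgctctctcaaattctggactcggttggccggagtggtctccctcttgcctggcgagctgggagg
Amn: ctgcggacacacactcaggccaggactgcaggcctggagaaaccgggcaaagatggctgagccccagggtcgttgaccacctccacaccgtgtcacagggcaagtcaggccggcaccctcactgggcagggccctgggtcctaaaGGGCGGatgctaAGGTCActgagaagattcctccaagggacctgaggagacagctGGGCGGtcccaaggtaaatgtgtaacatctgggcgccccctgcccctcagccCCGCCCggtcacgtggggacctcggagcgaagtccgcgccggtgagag
These 3 windows were searched on both strands for 6 motifs, the GC box GGGCGG, the CCAAT box CCAAT, the TATA box TATAAA, the HNF1-type site GTTAAT, the HNF4-type core CAAAGT and the nuclear receptor site AGGTCA, and no 2 of the matches overlapped. The windows of Lrp2 and Cubn each held 1 match to CAAAGT, starting 168 and 38 bases before the start site (positions -168 and -38), and that of Amn held none. Of 33469 rat promoter windows of the same length, 14.8% held this motif. GGGCGG, found in 33.1% of all windows, matched 2 times in Lrp2 (-157 and -102), 3 times in Amn (-105, -50 and 2) and not in Cubn. AGGTCA, found in 16.2% of windows, matched once in Amn (-93). CCAAT (37.5% of windows), TATAAA (14.2%) and GTTAAT (7.45%) had no match in the 3 windows. These matches describe letters only and say nothing of binding by a factor.

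Total counts per library ranged from 22040987 to 35275498, so that even Amn, the gene with the fewest counts among the 4, had 651 to 1271 counts in every library. No other tissue or cell type marker could be matched to the identifiers, so the share of proximal tubule cells and the presence of other cell types were not measured, and their part in the results was not tested. In whole kidney, fewer cells of a type and less RNA per cell cannot be told apart. Control library 4 stood apart from the other controls. For 5 identifiers the raw counts of the other 5 controls lay more than 10-fold away from those of control library 4 and of all DN and treated libraries, with at least 500 counts in every library on the high side, and the same search gave 0 identifiers for each of the other controls. Treated library 1 had the lowest mean correlation of log2 CPM with its own group (0.947, against 0.961 to 0.977 in the other 17 libraries). A difference between most controls and all other animals that is not the diet or STZ cannot be told apart from the model in the comparisons with Ctrl. The fold changes of the 4 genes and the ratios between them are also given without control library 4 and treated library 1. Leaving out control library 4 removes the control that sided with the DN and treated libraries for the 5 identifiers. Values without it therefore do not check that difference between most controls and all other animals.

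Megalin fell in the model. Levels are given in CPM, counts scaled to the library total and by TMM factors, which even out differences in library composition. Lrp2 stood at 2954, 3067, 2538, 1510, 2116 and 2730 CPM in control libraries 1 to 6. In DN libraries 1 to 6 it stood at 1142, 1189, 999, 1483, 1047 and 1246 CPM. All DN libraries were below all controls, by little for control library 4 against DN library 4. The group means were 2486 ± 584 CPM in Ctrl and 1185 ± 172 CPM in DN (SD, n = 6 each). The log2 fold change was -1.07 (SE 0.19, 95% interval -1.47 to -0.66), a level of 0.477 times the control (edgeR quasi-likelihood test, Benjamini-Hochberg adjusted p = 0.000433). Without control library 4 and treated library 1 it was -1.19 (SE 0.11, adjusted p = 3.17e-07).

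Cubilin fell as well. Its control libraries 1 to 6 held 672, 708, 555, 354, 520 and 549 CPM. The DN libraries held 258, 332, 260, 427, 258 and 363 CPM. DN libraries 4 and 6 overlapped with control library 4, and the other 4 DN libraries were below every control. The control mean was 560 ± 126 CPM and the DN mean 316 ± 70.0 CPM (SD, n = 6 each). The log2 fold change was -0.82 (SE 0.19, 95% interval -1.22 to -0.43), or 0.565 times the control (edgeR, adjusted p = 0.00278). Leaving out the same pair of libraries gave -0.94 (SE 0.13, adjusted p = 4.07e-05).

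Thus 2 of the 4 genes, the 2 large receptors, were called lower in DN, where 15.3% of all genes tested were called lower (adjusted p under 0.05) and the groups did not overlap in that direction for 7.89%. With so many genes called, a call by itself did not set the receptors apart, and the size of their fold changes is given for that reason. Among the 1579 genes with a mean of at least 100 CPM over all libraries, 376 (23.8%) were called lower in DN. In the same set the log2 fold change was as low as that of Lrp2 or lower in 49 genes (3.10%, Lrp2 included), and as low as that of Cubn or lower in 80 (5.07%). The median log2 fold change was -0.04 in this set and 0.01 over all genes.

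**Figure D1:**
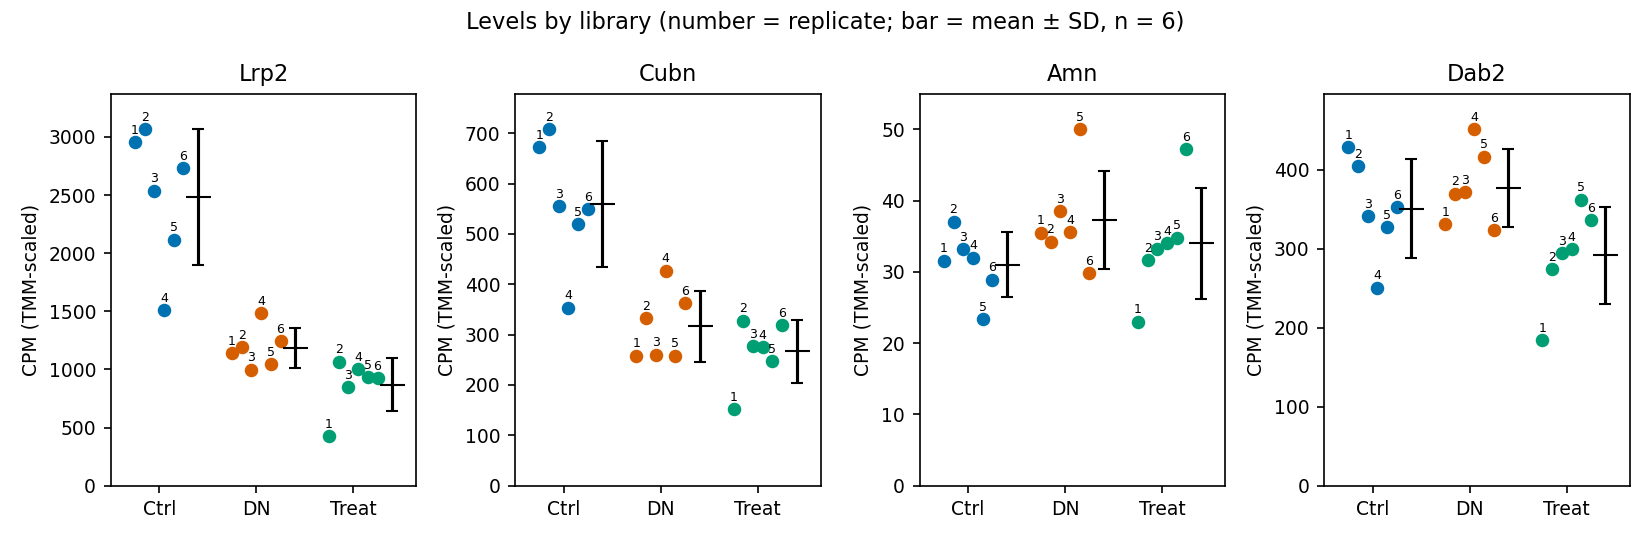
Levels of Lrp2, Cubn, Amn and Dab2 in CPM (vertical axes from 0) in the 6 libraries of each group, with the replicate number at each point and the mean ± SD as a black bar. The means of Lrp2 and Cubn were lower in DN and Treat than in Ctrl, with Cubn in DN libraries 4 and 6 above control library 4. Amn and Dab2 overlapped between all groups, and treated library 1 was the lowest of its group for all 4 genes.

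The 2 partners did not pass the test in DN. Amnionless stood at 31.6, 37.0, 33.2, 32.0, 23.4 and 28.9 CPM in control libraries 1 to 6 and at 35.5, 34.3, 38.6, 35.6, 50.03 and 29.8 CPM in the DN libraries. The groups overlapped, and 5 of 6 DN libraries were above the control median. Its means were 31.0 ± 4.58 and 37.3 ± 6.86 CPM (SD, n = 6 each), with a log2 fold change of 0.27 (SE 0.15, edgeR adjusted p = 0.176). The 95% interval of -0.04 to 0.57 reached from a level of 0.971 times to 1.49 times the control. The fold change of Amn was likewise 0.27 on the log2 scale (adjusted p = 0.151) with control library 4 and treated library 1 left out.

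Dab2 stood at 429, 405, 341, 251, 327 and 353 CPM in the controls and at 331, 370, 372, 452, 417 and 324 CPM in DN. As for the receptors, control library 4 was the lowest control. The log2 fold change was 0.11 (SE 0.15, 95% interval -0.20 to 0.41, edgeR adjusted p = 0.611), which spans 0.869 to 1.33 times the control level. Without the same pair of libraries the log2 fold change was 0.02 (adjusted p = 0.910). A fall of the size seen for Lrp2 or Cubn lay outside the intervals of both Amn and Dab2.

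Neither receptor had a mean nearer the control level in the treated animals than in DN. Between Treat and DN 0 of the 4 genes were called by edgeR, where 1.39% of all genes were (38.4% of them higher, but 84.4% higher when library totals replaced the TMM factors, which shifted the median of all genes by 0.13 on the log2 scale). An unadjusted p under 0.05 was found for 2 of the 4, Lrp2 (0.0299) and Dab2 (0.0205), and DESeq2 and limma voom called none of the 4 either. The share of all genes under that unadjusted cut was not counted. Among the 1579 genes with a mean of at least 100 CPM, the median log2 fold change between Treat and DN was -0.12. In that set 6.21% of genes were as low as Lrp2 or lower, 10.8% as low as Dab2 and 25.4% as low as Cubn. Lrp2 in treated libraries 1 to 6 was 428, 1068, 848, 1000 (rounded from 999.8), 933 and 924.3 CPM. Every treated library was below the DN median, and 4 were below all DN libraries. The mean was 867 ± 227 CPM (SD, n = 6) and the log2 fold change against DN was -0.45 (SE 0.19, 95% interval -0.85 to -0.05, adjusted p = 0.247). Without treated library 1, at 428 CPM, the treated mean was 955 ± 83.1 CPM (n = 5) and the log2 fold change was -0.31 (adjusted p = 0.332). Without control library 4 as well it was -0.29 (adjusted p = 0.163). The unadjusted interval of Lrp2 lay below the DN level in the fit of all 18 libraries with TMM factors. With library totals the log2 fold change was -0.33 (SE 0.18, edgeR adjusted p = 0.275). Without DN library 4 it was -0.38 (SE 0.20, edgeR adjusted p = 0.447).

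Cubn in the treated libraries was 152, 328, 278, 275, 248 and 318 CPM, a mean of 266 ± 63.4 CPM (SD, n = 6). Treated libraries 1 and 5 were below all DN libraries. Its log2 fold change against DN was -0.25 (SE 0.19, 95% interval -0.64 to 0.14, edgeR adjusted p = 0.544), without treated library 1 it was -0.13 (adjusted p = 0.778), and without control library 4 as well -0.11 (adjusted p = 0.746).

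Dab2, the adaptor, was 184, 274, 294, 300 (rounded from 299.7), 362 and 336 CPM in the treated libraries, and all 6 were below the DN median. The log2 fold change against DN was -0.37 (SE 0.15, 95% interval -0.68 to -0.06, edgeR adjusted p = 0.214). Amn was 23.0, 31.6, 33.3, 34.0, 34.8 and 47.3 CPM in Treat. Its log2 fold change against DN was -0.13 (SE 0.15, adjusted p = 0.699), or 0.0015 with library totals, so that its sign depended on the scaling. Leaving out control library 4 and treated library 1 gave -0.25 for Dab2 (adjusted p = 0.233) and -0.03 for Amn (adjusted p = 0.954). Treated library 1 was the lowest treated library for each of the 4 genes.

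Against the controls, both receptors were called lower in the treated animals too, 2 of the 4 genes where 21.9% of all genes were called lower. This comparison uses the same controls as that of DN with Ctrl. Among the 1579 genes with a mean of at least 100 CPM, 637 (40.3%) were called lower in Treat than in Ctrl. The median log2 fold change of that set was -0.14. In it 2.34% of genes had a log2 fold change as low as that of Lrp2 or lower, and 5.76% as low as that of Cubn. Lrp2 had a log2 fold change of -1.52 (SE 0.20, 95% interval -1.93 to -1.11, 0.349 times the control, edgeR adjusted p = 1.03e-05) and Cubn one of -1.07 (SE 0.19, 95% interval -1.47 to -0.68, 0.476 times the control, adjusted p = 0.000218). All 6 treated libraries were below all 6 controls for both genes, which held for 13.2% of all genes. Without control library 4 and treated library 1 the log2 fold changes were -1.48 for Lrp2, -1.05 for Cubn, 0.24 for Amn (adjusted p = 0.193) and -0.23 for Dab2 (adjusted p = 0.0885). For Amn the log2 fold change was 0.13 (95% interval -0.18 to 0.44, adjusted p = 0.488) and for Dab2 -0.27 (95% interval -0.57 to 0.04, adjusted p = 0.149). Of the calls in this comparison 51.2% were higher with TMM factors and 64.5% with library totals, and the calls of Lrp2 and Cubn held under both.

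**Figure D2:**
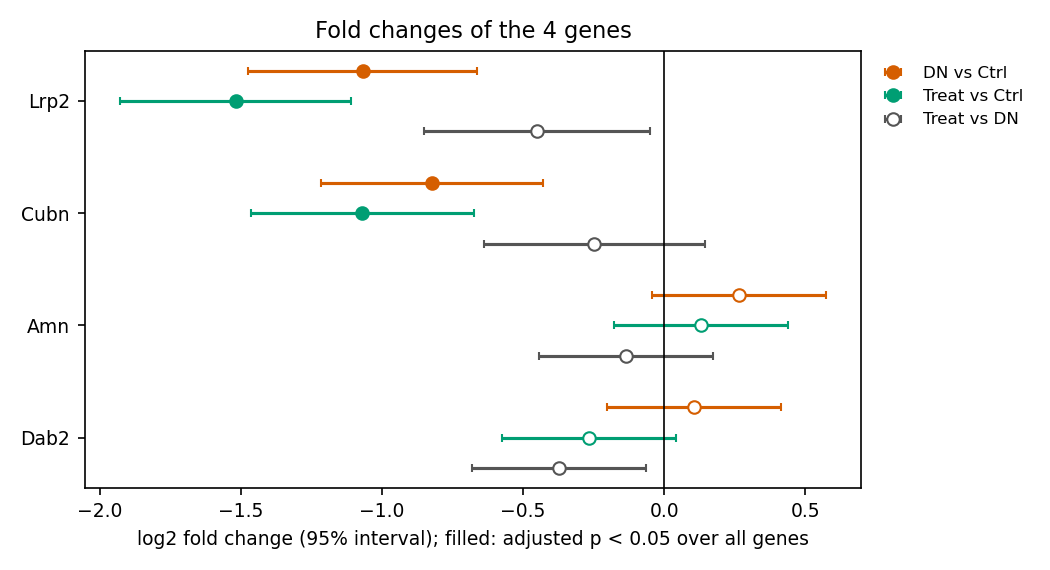
Log2 fold changes of the 4 genes (horizontal axis) with 95% intervals in the 3 comparisons, filled where the adjusted p over all genes was under 0.05. The filled points are Lrp2 and Cubn against Ctrl, at -1.07 and -0.82 in DN and -1.52 and -1.07 in Treat, and no point of Treat versus DN is filled.

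Whether the partners changed unequally was tested with ratios of counts within a library, which do not depend on the scaling between libraries. There were 6 ratios and 3 comparisons, and each was tested with a two-sided exact permutation test (smallest possible p = 0.00216), adjusted over the 18 tests. The ratios share the genes and libraries of the fits above, so their results are independent neither of those fits nor of each other. No share of other genes was counted for the ratios. Of the 1579 genes with at least 100 CPM, 3.10% were as low as Lrp2 or lower in DN against Ctrl, and 5.07% as low as Cubn. In Treat against Ctrl these shares were 2.34% and 5.76%. Most genes of that set would thus rise against either receptor, and rises of Dab2 or Amn against them mostly repeat the receptors' falls. The level of such a ratio depends on transcript lengths, and only its change between groups is read here. In Ctrl there were 12.9 to 16.6 Dab2 counts per 100 Lrp2 counts (median 14.0). The ratio was 26.0 to 39.8 in DN (median 30.8) and 25.7 to 43.0 in Treat (median 35.6). The control libraries did not overlap with either group. The geometric mean was 2.23-fold higher in DN than in Ctrl (log2 difference 1.16, SE 0.11, exact p = 0.00216, adjusted 0.00487) and 1.07-fold that of DN in Treat (log2 difference 0.10, SE 0.14, exact p = 0.487, adjusted 0.516). Control library 4, at 16.6, was the highest control and lay below all DN and treated libraries. Without it and treated library 1 the log2 differences were 1.20 between DN and Ctrl (adjusted p = 0.0159) and 0.04 between Treat and DN (adjusted p = 0.801).

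For the cubilin-amnionless pair, there were 4.50 to 9.05 Amn counts per 100 Cubn counts in Ctrl (median 5.25), 8.22 to 19.4 in DN (median 12.04) and 9.66 to 15.1 in Treat (median 13.2). Control library 4, at 9.05, was the highest control and the control that overlapped with DN. The geometric mean was 2.11-fold higher in DN than in Ctrl (log2 difference 1.08, SE 0.25, exact p = 0.00649, adjusted 0.0130) and 2.29-fold higher in Treat than in Ctrl (log2 difference 1.19, exact p = 0.00216, adjusted 0.00487). Treat and DN did not differ beyond their spread (log2 difference 0.11, SE 0.23, exact p = 0.606). With control library 4 and treated library 1 left out, the difference from Ctrl was 1.22 in DN and 1.28 in Treat (adjusted p = 0.0159 each), and that between Treat and DN was 0.07 (adjusted p = 0.801).

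The 2 receptors also changed unequally with each other. Cubn counts per 100 Lrp2 counts were 20.1 to 24.6 in Ctrl (median 22.9), 22.6 to 29.1 in DN (median 27.0) and 26.6 to 35.5 in Treat (median 31.7). Treat did not overlap with Ctrl (log2 difference 0.46, SE 0.08, exact p = 0.00216, adjusted 0.00487), and 5 of 6 DN libraries were above all controls, with DN library 1 among the controls (log2 difference 0.23, SE 0.07, exact p = 0.0173, adjusted 0.0312). Between Treat and DN the difference was 0.23 (SE 0.09, exact p = 0.0303, adjusted 0.0455). The last 2 differences were near the threshold. That between DN and Ctrl missed it without control library 3 or 6 or DN library 2, 3, 4 or 6 (0.19 to 0.23, adjusted p 0.0519 to 0.0567). That between Treat and DN missed it without DN library 1, 2, 3 or 5 or treated library 1, 2, 3 or 6 (0.19 to 0.25, adjusted p 0.0584 to 0.0909). Without both control library 4 and treated library 1, the difference was 0.43 between Treat and Ctrl (adjusted p = 0.0159), 0.24 between DN and Ctrl (adjusted p = 0.0425) and 0.20 between Treat and DN (adjusted p = 0.0909).

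**Figure D3:**
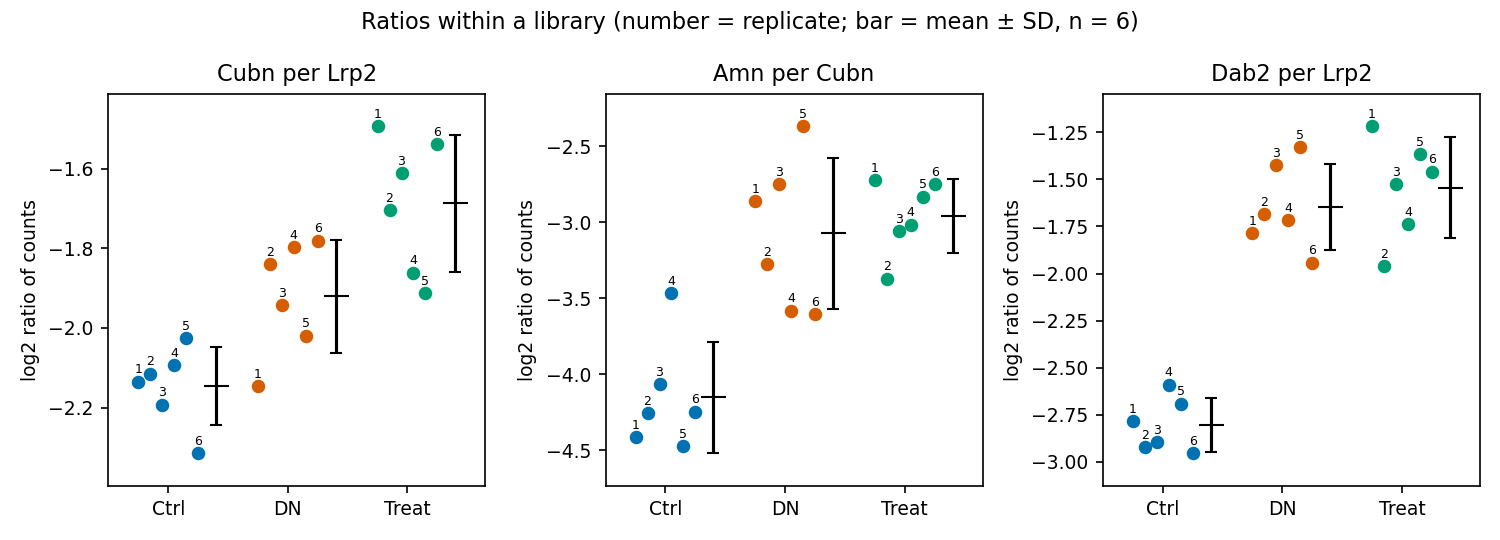
Log2 ratios of counts within a library (vertical axes, not starting at 0) for Cubn per Lrp2, Amn per Cubn and Dab2 per Lrp2 by group, with replicate numbers and the mean ± SD as a black bar. For Dab2 per Lrp2 all DN and treated libraries lie above all controls, and for Amn per Cubn control library 4 is the highest control.

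Of the other ratios, Amn per Lrp2 rose 2.47-fold from Ctrl to DN and stood 3.14-fold above Ctrl in Treat, and Dab2 per Cubn rose 1.91-fold and stood 1.74-fold above Ctrl (exact p = 0.00216, adjusted 0.00487 for each of these 4 differences). Neither differed between Treat and DN beyond the spread (adjusted p = 0.167 and 0.502). With control library 4 and treated library 1 left out, the log2 differences from Ctrl were 1.45 in DN and 1.71 in Treat for Amn per Lrp2, and 0.97 and 0.81 for Dab2 per Cubn (adjusted p = 0.0159 each). The ratio of the 2 partners, Amn per Dab2, did not pass between DN and Ctrl (log2 difference 0.15, SE 0.15, adjusted p = 0.413) or between Treat and DN (0.25, SE 0.11, adjusted p = 0.0809). It was higher in Treat than in Ctrl (0.39, SE 0.15, exact p = 0.0303, adjusted 0.0455). That call was lost on leaving out any single library other than control library 4 or treated library 5 ( adjusted p 0.0584 to 0.0909). Between Treat and DN the same ratio passed without DN library 5 (0.30, adjusted p = 0.0425) or treated library 5 (0.30, adjusted p = 0.0300). Without both control library 4 and treated library 1 it was 0.25 between DN and Ctrl (adjusted p = 0.0959), 0.48 between Treat and Ctrl (adjusted p = 0.0286) and 0.23 between Treat and DN (adjusted p = 0.139).

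Within groups, the 2 receptor genes varied together. Between Lrp2 and Cubn, Pearson's r of log2 CPM was 0.967 in Ctrl (exact permutation p = 0.00278, adjusted 0.0250 over 18 relations, n = 6) and Spearman's rho was 0.943 (exact p = 0.0167, adjusted 0.1). In DN r was 0.928 (exact p = 0.00833, adjusted 0.0375) and rho 0.771 (exact p = 0.103, adjusted 0.308). Without the 2 libraries farthest from the median of Lrp2, r was 0.922 in Ctrl and 0.872 in DN (n = 4). In Treat r was 0.941 (exact p = 0.0403, adjusted 0.145) and rho 0.543 (exact p = 0.297, adjusted 0.594), and without the 2 farthest libraries r was -0.09, so that the relation there rested on those libraries. Both genes share the scaling factor of a library, which can add to such a correlation, and its part was not measured.

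Dab2 varied with the receptors in the controls, and its relation with them did not pass in DN or Treat. Between Lrp2 and Dab2 r was 0.960 in Ctrl (exact permutation p = 0.00278, adjusted 0.0250, n = 6) with a rho of 0.943 (exact p = 0.0167, adjusted 0.1), and r was 0.893 without the 2 farthest libraries. In DN r was 0.303 (exact p = 0.572, adjusted 0.606) with a rho of -0.03 (exact p = 1). Without the 2 farthest libraries r in DN was -0.81 (n = 4). In Treat r was 0.844 (exact p = 0.124, adjusted 0.278) with a rho of 0.257 (exact p = 0.658, adjusted 0.803), and r was 0.162 without the 2 farthest libraries. Differences between groups in these correlations were not tested. Between Cubn and Dab2 r was 0.982 in Ctrl (exact p = 0.00833, adjusted 0.0375; rho 0.886, exact p = 0.0333, adjusted 0.15) and 0.294 in DN (exact p = 0.551, adjusted 0.606; rho 0.200, exact p = 0.714, adjusted 0.803). In Treat it was 0.760 (exact p = 0.139, adjusted 0.278) with a rho of 0.03 (exact p = 1), and r was -0.23 without the 2 farthest libraries. Without the 2 farthest libraries r of Cubn and Dab2 was 0.988 in Ctrl and -0.02 in DN. None of the relations of Amn with the other 3 genes passed (lowest adjusted p 0.196 for r and 0.1 for rho, both with Dab2 in Treat).

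**Figure D4:**
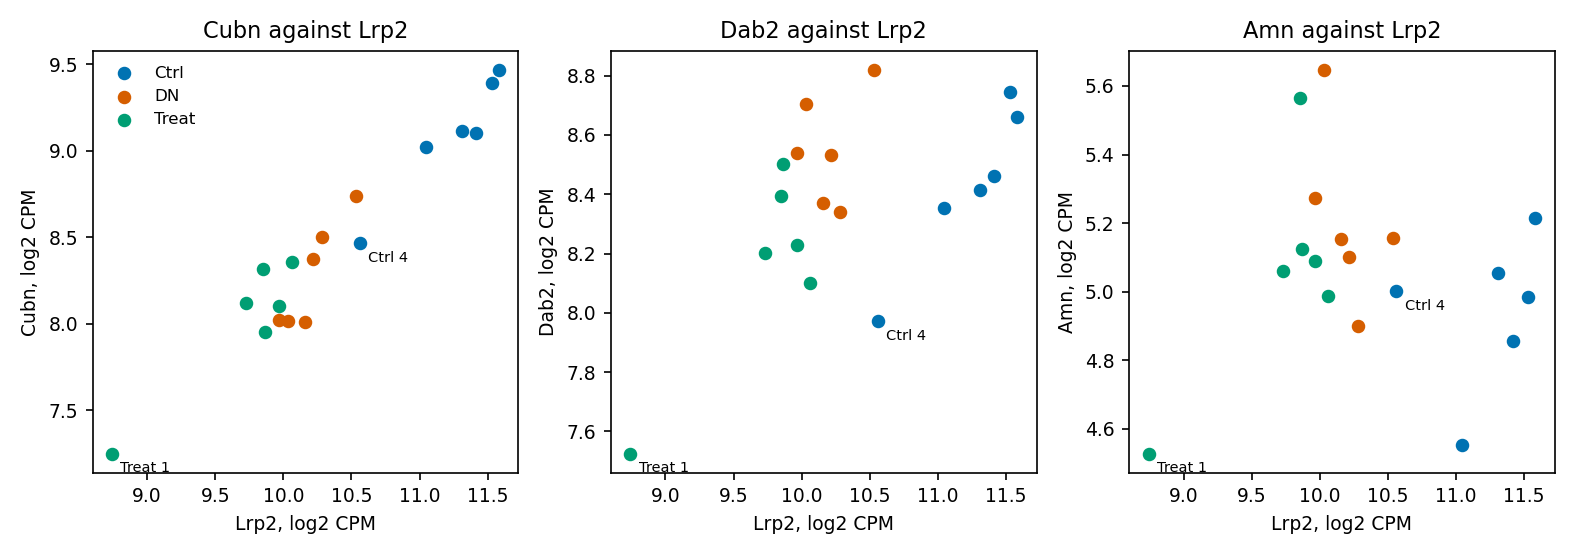
Cubn, Dab2 and Amn (vertical axes) against Lrp2 (horizontal axes), all in log2 CPM, with 1 point per library coloured by group and control library 4 and treated library 1 named. Cubn rises with Lrp2 within Ctrl and DN (r of 0.967 and 0.928), whereas Dab2 overlaps between Ctrl and DN (251 to 429 and 324 to 452 CPM) at different Lrp2 levels.

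To place this shared variation among all genes, deviations of log2 CPM from the group mean were compared over the 18 libraries for 9806 genes with a mean of at least 10 CPM, as a description without a test. Lrp2 was rank 2 of 9805 genes in likeness to Cubn and Cubn rank 10 in likeness to Lrp2 (correlation of deviations 0.927). Dab2 was rank 292 in likeness to Lrp2 (0.814) and Amn rank 3341 (0.380). Without control library 4 and treated library 1, a check added after the data were seen, the likeness of Lrp2 and Cubn was 0.815 (ranks 40 and 17), that of Lrp2 and Dab2 0.354 and that of Lrp2 and Amn 0.03. The gene most like Lrp2 was ENSMUSG00000030562 (0.970, and 0.912 without both libraries), for which the tables used here give no name. Its level was 1008 ± 294 CPM in the controls, 426 ± 91.5 CPM in DN and 193 ± 56.1 CPM in the treated animals (SD, n = 6 each), and unlike Lrp2 it was called between Treat and DN (log2 fold change -1.14, edgeR adjusted p = 0.0199). The gene most like Cubn was ENSMUSG00000062169 (0.933), whose group means of 36.1 ± 2.49, 34.8 ± 1.70 and 36.9 ± 2.22 CPM gave no call in any comparison (lowest edgeR adjusted p = 0.543). Without both libraries another identifier was the most like Cubn (0.927).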

How the data were processed

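The authors deposited raw counts per gene identifier for 18 libraries, without normalization. Per the labels' protocols, RNA came from a Qiagen column kit and libraries from a SMARTER mRNA kit. The sources used here name no aligner, counter, annotation or strand setting. If rat reads were counted on a mouse reference, reads could have been lost unevenly between genes, so levels of the 4 genes are not ranked against each other. Columns were assigned by library names, and groups by titles. Nothing beyond the 6 animals per group says how samples were taken.

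edgeR 4.0.16 (R 4.3.3) was run on the deposited counts: filterByExpr (19233 genes), TMM factors, 1 fit of all 18 libraries, quasi-likelihood F-test, Benjamini-Hochberg adjustment over all genes, calls at adjusted p under 0.05. Log2 CPM used a prior count of 2, ratios an offset of 0.5 counts, and exact tests scipy 1.17.1. The fit was tested on simulated data. Alternatives were DESeq2 1.42.0, limma 3.58.1 voom, other scalings and filters, a replicate block and left-out libraries. Same-numbered libraries did not deviate together.

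The members and lists were chosen with earlier results of these data known. The named-gene rule took the 4 members, called genes of 16 pathway and marker lists (213 symbols), and the genes most like a member. Without a name table for these identifiers (0 rows of the rat table hold one), the lists gave no values, and at most 2 identifiers are named.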

Additional observations from a re-analysis of the deposited data

Results flagged for a closer look

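Values were checked, in 33 sets of 6 libraries, for a library whose gap to its nearest neighbour took a larger share of the group's range than Dixon's 95% critical value. Chance gives about 1 such set in 20, and 2 were found. Treated library 1 held 428 CPM of Lrp2, against 848 to 1068 CPM in the other treated libraries. Control library 4 had a log2 ratio of Amn to Lrp2 of -5.56, against -6.56 to -6.26 in the other controls.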

How the results depend on the processing

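The 12 results of the 4 genes kept their direction and their side of the threshold in 323 of 324 alternative fits. The exception was Amn between Treat and DN, at 0.0015 with library totals and an adjusted p of 0.996. Some of the 324 fits left out a library of the group not compared, which hardly moves a fold change. Lrp2 between DN and Ctrl, for example, stayed at -1.07 without any single treated library. Most of the 12 results were also not called in the main fit. Lrp2 between DN and Ctrl ranged from -1.19 to -0.999 (adjusted p at most 0.00224) and Cubn from -0.94 to -0.74 (at most 0.00866). Lrp2 between Treat and DN ranged from -0.52 to -0.29 (adjusted p 0.129 to 0.447). Between Treat and DN 268 genes were called, and 799 with DESeq2, 775 with library totals, 119 without a filter, 116 with only the 12 libraries compared, 737 with limma voom and 593 without control library 4 and treated library 1. With 1 library left out it ranged from 97 to 446, moving by over 1.5 times without control library 6 (164), DN library 1, 2, 4 or 6 (152, 119, 97, 125) or treated library 1, 3 or 6 (446, 119, 160).

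With the replicate number as a block the count between Treat and DN was 117, and no call of the 4 genes changed. Same-numbered libraries of 2 groups had correlations of their deviations between -0.19 and 0.19, so the numbers were not taken to pair animals. The ratios tested as pairs (exact sign-flip test, where 6 pairs and 18 tests left no adjusted p under 0.0703) all missed the threshold with unchanged differences: between DN and Ctrl 1.08 for Amn per Cubn, 1.30 for Amn per Lrp2, 0.23 for Cubn per Lrp2, 0.93 for Dab2 per Cubn and 1.16 for Dab2 per Lrp2, between Treat and Ctrl 1.19, 1.65, 0.46, 0.80 and 1.26 for the same ratios and 0.39 for Amn per Dab2, and between Treat and DN 0.23 for Cubn per Lrp2. Without control library 4 and treated library 1 the last was 0.20 (adjusted p = 0.0909). With 1 library left out, Cubn per Lrp2 ranged from 0.19 to 0.27 (DN and Ctrl) and from 0.19 to 0.28 (Treat and DN), and Amn per Dab2 from 0.33 to 0.50 (Treat and Ctrl) and from 0.18 to 0.30 (Treat and DN). The cause of these changes was not tested.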
